A study of Mus musculus with 14 samples.

Results

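The 300 gene bodies with the highest H3K36me2 score were taken from a deposited table of 22470 gene bodies in mouse tumor-derived cells. A gene body is the stretch from a gene's transcription start to its end. Gene bodies with mitochondrial, predicted (Gm) or Rik symbols were left out, 17047 of the rest were above 0 in both H3K36me2 columns, and the 300 with the highest value in the lower of their 2 columns were kept. The genes were thus chosen by their H3K36me2 scores, which are given below as a description, without a test. The H3K27me3 column, the RNA, the position and the length of the genes were not used in the choice.

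H3K36me2 is dimethylation of lysine 36 on histone H3, a mark laid down over genes and intergenic chromatin by the NSD family of methyltransferases, to which NSD3 belongs. H3K27me3, trimethylation of lysine 27 by Polycomb repressive complex 2, marks silenced genes, and H3K36 methylation on the same histone tail is known to hinder Polycomb activity in biochemical assays. The study set cells that received a guide RNA against NSD3 (sgNSD3) beside cells that received a control guide RNA (sgControl), and it profiled the 2 histone marks by releasing antibody-bound nucleosomes with micrococcal nuclease. All cells were tumor-derived, from the C57BL/6 strain and at passages 6 to 8, and the labels give neither the tumor type nor how many clones or animals they came from. Per condition the labels list 3 RNA libraries, 2 H3K36me2 libraries, 1 H3K27me3 library and 1 IgG library, 14 in all. The p-values below therefore measure the spread between libraries, which may be technical.

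The chromatin table has 2 H3K36me2 columns and 1 H3K27me3 column of signed scores, and its header does not say which libraries or conditions each score sets against each other. A high score is thus the authors' deposited value for that gene body, and no direction between sgNSD3 and sgControl can be read from it. The RNA table holds log2 values for 6 libraries, from which 20294828 to 21863833 counts per library were recovered. RNA of the targeted gene, Nsd3, was 21989, 22012 and 21837 normalized counts in the libraries labelled sgNSD3, whose columns are headed KO. It was 14568, 14402 and 14675 in those labelled sgControl, so Nsd3 RNA was 1.51-fold higher in sgNSD3 libraries. RNA does not show whether NSD3 protein was lost, and the labels could not be checked. Directions in RNA below are therefore between libraries as labelled. The mesenchymal markers Vim, Col1a1, Col1a2, Fn1, Cdh2 and Pdgfrb were all above the test's minimum level, 4 of 9 epithelial and squamous markers were (Krt8, Krt18, Krt19 and Krt14), and Epcam was at 0 in every library. None of 4 immune, 1 of 3 endothelial (Kdr) and 1 of 4 neural markers (Tubb3) were.

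The promoter windows of 6 of these genes are shown because the results turn on them: Aida and Slc30a4 are among the 4 highest scores, Ugt1a6a and Ugt1a1 stand for a cluster on chromosome 1, and Rcan2 and Rab6b had the RNA rise and the RNA fall with the largest change on the deposited scale. Each runs 5′ to 3′ on the gene's own strand from 250 bases before the start to 50 after it, is taken from RefSeq (GRCm38.p6, the first start listed), and has CG dinucleotides, the sites of DNA methylation in mammals, in capitals.
Aida, chr1:183296810-183297109, plus strand: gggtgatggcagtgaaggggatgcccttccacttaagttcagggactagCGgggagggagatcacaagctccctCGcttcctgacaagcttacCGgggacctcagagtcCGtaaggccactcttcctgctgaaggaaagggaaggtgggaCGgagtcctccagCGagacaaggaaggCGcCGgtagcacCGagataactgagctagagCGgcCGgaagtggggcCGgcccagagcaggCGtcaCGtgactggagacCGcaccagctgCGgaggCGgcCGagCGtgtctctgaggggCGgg
Slc30a4, chr2:122702614-122702913, minus strand: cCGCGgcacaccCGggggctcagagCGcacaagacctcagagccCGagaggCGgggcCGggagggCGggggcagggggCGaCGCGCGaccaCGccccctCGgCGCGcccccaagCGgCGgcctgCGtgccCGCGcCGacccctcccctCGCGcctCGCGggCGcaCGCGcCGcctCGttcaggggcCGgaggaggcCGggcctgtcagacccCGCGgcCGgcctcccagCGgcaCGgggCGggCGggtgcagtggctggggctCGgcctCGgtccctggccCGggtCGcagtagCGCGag
Ugt1a6a, chr1:88134559-88134858, plus strand: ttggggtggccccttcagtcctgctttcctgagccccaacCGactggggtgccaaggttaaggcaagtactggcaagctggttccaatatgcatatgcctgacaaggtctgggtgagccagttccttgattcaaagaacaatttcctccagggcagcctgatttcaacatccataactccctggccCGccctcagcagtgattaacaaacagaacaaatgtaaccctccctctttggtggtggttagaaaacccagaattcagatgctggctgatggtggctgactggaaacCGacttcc
Ugt1a1, chr1:88211709-88212008, plus strand: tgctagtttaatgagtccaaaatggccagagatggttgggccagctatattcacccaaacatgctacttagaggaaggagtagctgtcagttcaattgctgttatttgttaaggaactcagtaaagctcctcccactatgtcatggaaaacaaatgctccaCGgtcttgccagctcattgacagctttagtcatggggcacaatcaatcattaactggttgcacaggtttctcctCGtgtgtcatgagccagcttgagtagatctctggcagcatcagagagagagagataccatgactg
Rcan2, chr17:43801102-43801401, plus strand: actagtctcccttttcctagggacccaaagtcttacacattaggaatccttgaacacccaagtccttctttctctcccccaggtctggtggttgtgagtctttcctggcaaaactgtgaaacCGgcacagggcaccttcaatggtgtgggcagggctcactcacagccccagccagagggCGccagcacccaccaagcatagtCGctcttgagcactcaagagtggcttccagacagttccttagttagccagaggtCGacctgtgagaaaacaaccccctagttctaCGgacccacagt
Rab6b, chr9:103111824-103112123, plus strand: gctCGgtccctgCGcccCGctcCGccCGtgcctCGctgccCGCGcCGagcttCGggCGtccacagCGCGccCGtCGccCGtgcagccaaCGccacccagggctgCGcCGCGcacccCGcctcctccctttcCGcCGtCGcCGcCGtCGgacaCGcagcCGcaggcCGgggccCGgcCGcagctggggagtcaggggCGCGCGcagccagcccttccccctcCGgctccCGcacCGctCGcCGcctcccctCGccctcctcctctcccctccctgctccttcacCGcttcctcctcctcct
The 2 Ugt1a windows held 3 and 2 CG dinucleotides and the Rcan2 window 5, while those of Aida, Rab6b and Slc30a4 held 20, 42 and 46. Over all 27025 windows in the RefSeq table, 94.2% held at least 1 CG and the median was 7 (quartiles 3 and 21), so the set spans both ends of that range. Only 231 of the 300 genes had a window, 77.0%, as did 13437 of the 17047 gene bodies the rule could take and 16915 of all 22470. The median CG count of these windows was 17 in the set, 16 in those the rule could take and 14 in all. These medians leave out genes without a window, and the difference was not tested.

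In the first H3K36me2 column the 300 gene bodies ran from 0.192 to 3.86 with a median of 0.218, and in the second from 0.193 to 5.11 with a median of 0.257. Over all gene bodies the medians were 0.0757 and 0.125. The first column was the lower of the 2 in 219 of the 300. Most of the set lay close to its limit: 296 of 300 had a lower score under 0.35, and the median lower score was 0.211.

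Drg1, Sfi1 and Aida stood far above the others by their scores. Drg1, a GTP-binding protein gene at chr11:3249907-3266464, scored 3.86 and 4.59. Sfi1, a centrosomal centrin-binding protein gene at chr11:3131850-3203347, scored 3.64 and 4.07. Aida, an axin-interacting protein gene at chr1:183297060-183324501, scored 2.28 and 5.11. They were followed by the zinc transporter gene Slc30a4 on chromosome 2 at 1.12 and 0.470, and no other gene of the set scored above 0.396 in the first column.

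The high values were not shared by the neighbours. Eif4enif1, the gene body that lies between Sfi1 and Drg1 and overlaps the end of Sfi1, scored 0.0693 and 0.244 and ranked 8272. Brox and Mia3, on either side of Aida, scored 0.192 and 0.188 (Brox) and -0.0120 and 0.139 (Mia3). The 13 mitochondrial genes that the choice left out had median scores of 3.55 and 9.59 in the H3K36me2 columns and -1.77 in the H3K27me3 column, and Aida's H3K27me3 score was -1.91. Whether the scores of Aida, Drg1 and Sfi1 share a source with those of the mitochondrial genes was not tested.

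RNA of these genes did not pass the test. Drg1 had 1136, 1189 and 1100 normalized counts in sgNSD3 libraries, against 1156, 1199 and 1094 in sgControl libraries. Aida had 1288, 1292 and 1269 normalized counts in sgNSD3 libraries, against 1192, 1304 and 1331 in sgControl libraries. The conditions overlapped for both, and also for Sfi1 (adjusted p = 0.993) and Slc30a4 (adjusted p = 0.698, limma).

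**Figure D1:**
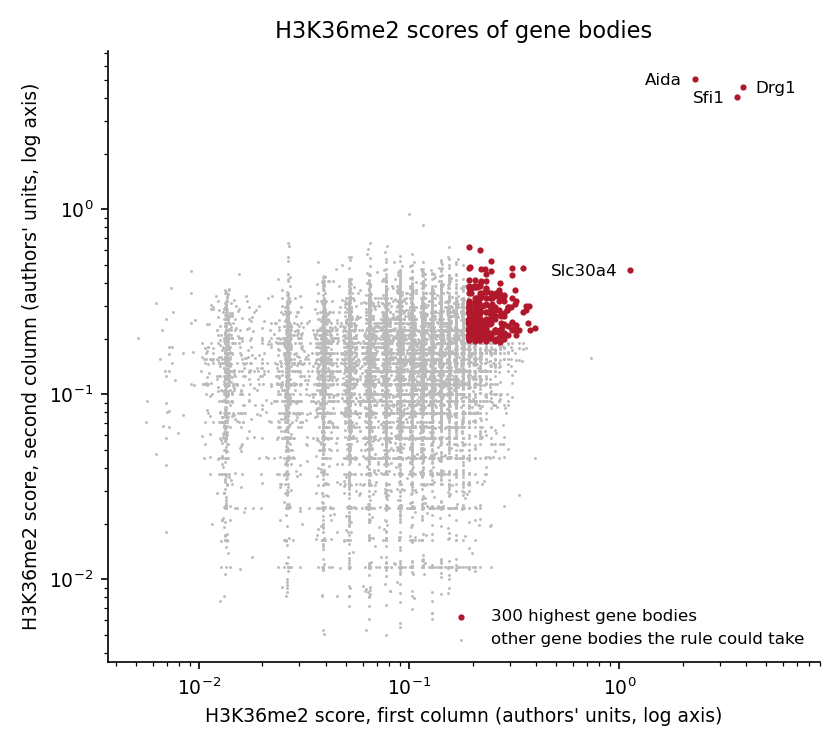
H3K36me2 score in the first column (x axis, log scale) against the second column (y axis, log scale), 1 point per gene body that the rule could take and that was above the plotted minimum; red points are the 300 highest. Drg1, Sfi1, Aida and Slc30a4 lie apart, the rest of the set fills the corner just above 0.192 in both columns, and points fall on stripes because the scores take preferred values.

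The next genes by score were Ugt1a6a (0.347 and 0.483), the sorting adaptor gene Pacs1 (0.320 and 0.320), Hjurp (0.319 and 0.368), which encodes the chaperone of the centromeric histone CENP-A, Ugt1a7c (0.310 and 0.483), and Cd96 (0.308 and 0.332), a receptor of T and natural killer cells. Polr2m (0.308 and 0.442), whose product associates with RNA polymerase II, the histone H4 methyltransferase gene Suv420h1 (0.320 and 0.307) and Upk3bl (0.372 and 0.3004) completed the 12 highest. Cd96 had no count in any RNA library.

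The limit fell in a dense part of the ranking. Gpr124, Ccdc121, Stx7, Syce2 and Capns2 were the last 5 inside, with lower scores between 0.1923 and 0.1924, and Atoh1, BC021785, Krt80, Shcbp1l and Nyap1 were the first 5 outside, between 0.1918 and 0.1923. Within 0.01 of the limit lay 83 gene bodies of the set and 100 outside it. The first column took preferred values at a spacing of 0.0128: 74.5% of 21793 nonzero scores from -0.1 to 0.3 lay within 0.001 of that grid, against 15.6% for evenly spread values. On this scale the limit lay 15 steps above 0 and the median gene of the set 1.48 steps above the limit, so most ranks inside the set differ by very few steps of the score.

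The genes were unevenly spread over the genome. Of 21535 gene bodies with a RefSeq position, 299 were in the set, 1.39%. Chromosome 1 held 42 of its 1188 gene bodies in the set (3.54%), chromosome 19 held 2.70%, chromosome 5 held 2.43% and chromosome 9 held 2.32%. By contrast 2 of 1977 gene bodies on chromosome 7, 1 of 866 on chromosome 14, 3 of 1284 on chromosome 4 and 1 of 899 on chromosome X belonged to it. Together chromosomes 4, 7, 14 and X carried 23.3% of gene bodies and 2.34% of the set, and chromosomes 1, 5, 9 and 19 carried 20.1% of gene bodies and 39.8% of the set. These 2 groups of chromosomes were picked after their shares were seen.

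The uneven spread was also present among genes with RNA: 6 of 2625 tested genes on chromosomes 4, 7, 14 and X belonged to the set (0.229%), and 85 of 2843 on chromosomes 1, 5, 9 and 19 did (2.99%). The scores of all gene bodies moved with it. Their medians in the first and second column were 0.0388 and 0.0713 on chromosome X and 0.0531 and 0.0994 on chromosome 7, compared with 0.0898 and 0.147 on chromosome 1 and 0.0902 and 0.155 on chromosome 19. When each score was divided by its chromosome's median, 123 of the 300 genes remained and the spread turned round between the groups of chromosomes. Chromosome 1 then held 4.33% of the set, chromosomes 1, 5, 9 and 19 together 13.3%, and chromosomes 4, 7, 14 and X 34.3% (103 genes, 47 of them on chromosome 7 and 28 on chromosome X), where those 4 carry 23.3% of gene bodies. The scarcity of the set on chromosomes 4, 7, 14 and X as a group thus holds for the scores as deposited. For that group it does not hold by scores relative to their chromosome. Chromosome 4 by itself stayed low, with 13 of the 300 genes chosen by divided score among its 1284 gene bodies. The genome held 300 among 21535 gene bodies.

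**Figure D2:**
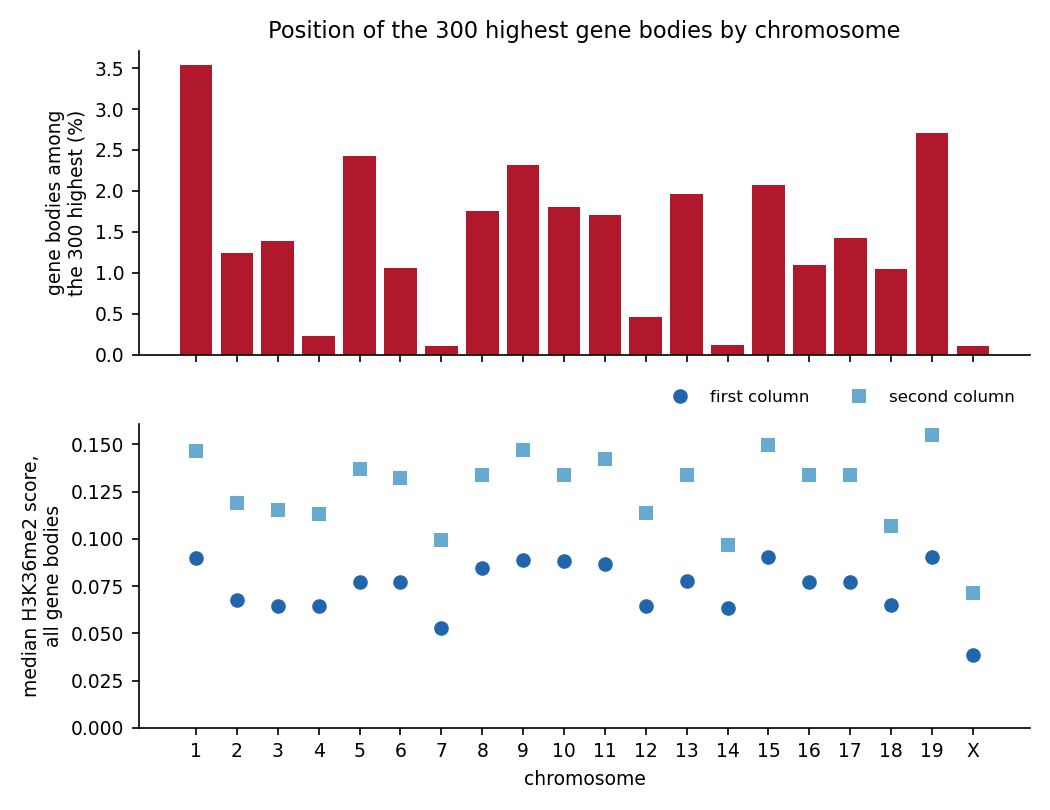
Top, percent of each chromosome's gene bodies that are among the 300 highest H3K36me2 scores; bottom, median score of all gene bodies on that chromosome in the first (circles) and second (squares) column. Chromosome 1 reached 3.54%, chromosomes 4, 7, 14 and X stayed near 0, and the medians were lowest on chromosome X; chromosome Y, with none of the set, is not drawn.

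A stretch of chromosome 1 from 88055411 to 88525909 (470.5 kb) held 10 of the 300 among its 15 gene bodies. The stretch and its Ugt1a group were picked after their values were seen. Among the 10, 6 were Ugt1a genes, whose enzymes attach glucuronic acid to bilirubin, drugs and hormones and which share their last exons: Ugt1a10, Ugt1a8, Ugt1a7c, Ugt1a6b, Ugt1a6a and Ugt1a1. The others were Mroh2a, Hjurp, the cold-sensing channel gene Trpm8, and Glrp1. Because the Ugt1a gene bodies lie inside one another, their scores are not independent: Ugt1a10 and Ugt1a8 had the same values in both columns (0.283 and 0.215), and Ugt1a7c and Ugt1a6a had the same second value (0.483). Over the set, 10 gene bodies overlapped another member in 3 places, which left 293 separate loci.

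RNA passed the test as higher in sgNSD3 libraries for 4 of the 7 tested genes of the set in this stretch. Over all tested genes 5.44% were higher (limma on the deposited values, Benjamini-Hochberg adjustment at 0.05). Of the stretch's gene bodies outside the set, Dnajb3, which ranked 10520 by score, was also higher. It averaged 61.2 normalized counts in sgNSD3 libraries and 34.4 in sgControl libraries (limma adjusted p = 0.00466). Ugt1a2 and Ugt1a5, also outside the set, were tested and not called. In bulk RNA, a change in the number of cells that express a gene and a change in RNA per cell cannot be told apart. Ugt1a1 had 78.5, 76.7 and 76.3 normalized counts in sgNSD3 libraries, against 40.7, 39.2 and 30.4 in sgControl libraries (log2 fold change 1.06 ± 0.17 SE, limma adjusted p = 6.98e-05). Mroh2a had 618, 614 and 581 in sgNSD3 libraries, against 484, 502 and 501 in sgControl libraries. All sgNSD3 values of both genes lay above all sgControl values.

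Ugt1a7c was 1.13-fold higher (log2 0.18 ± 0.049 SE) and Hjurp 1.07-fold higher (log2 0.10 ± 0.032 SE) in sgNSD3 libraries. Ugt1a6a had 70.3, 78.6 and 51.8 normalized counts in sgNSD3 libraries, against 42.8, 35.4 and 57.9 in sgControl libraries, and missed the threshold (limma adjusted p = 0.0580). Reads from the shared exons cannot be assigned to one Ugt1a gene, and the sources used here do not say how the authors' counting split them. Trpm8 and Glrp1 stayed below 8 counts in every library and Ugt1a10 had none.

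**Figure D3:**
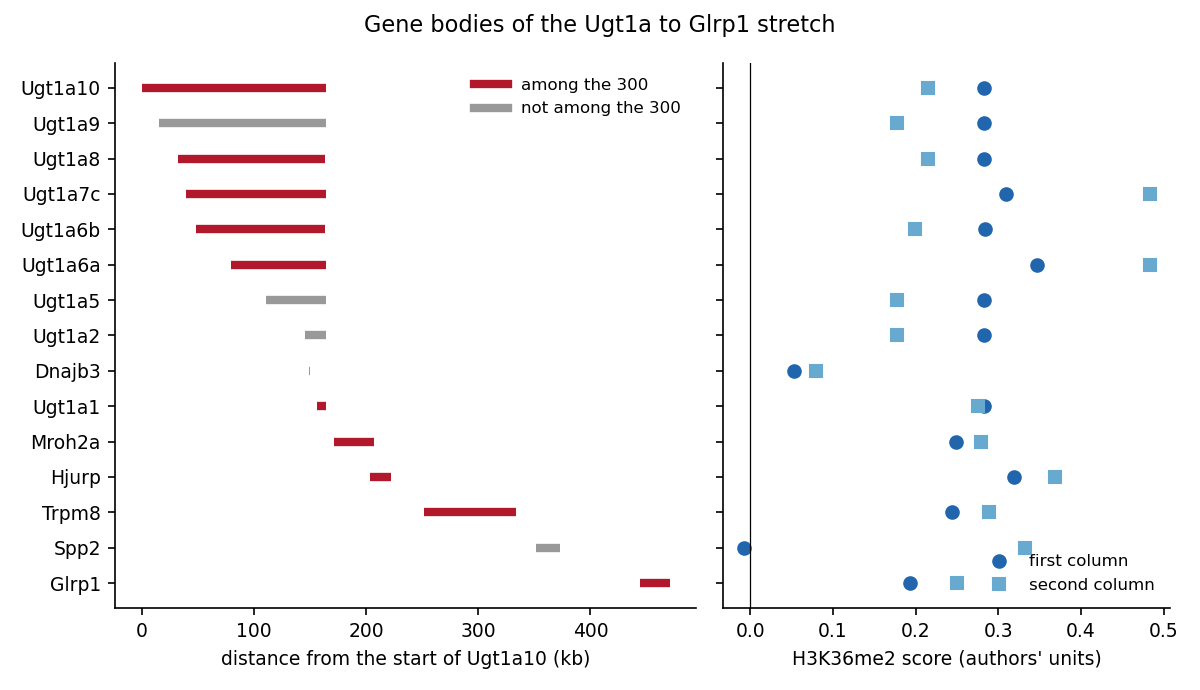
Left, extent of the 15 gene bodies of the chromosome 1 stretch as distance from the start of Ugt1a10 (kb), red where the gene body is among the 300 and grey where it is not; right, the H3K36me2 score of each in the first (circles) and second (squares) column. The 10 red gene bodies score above 0.192 in both columns, and the 5 grey ones lie below it in at least 1.

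The genes of the set were longer than others. Their median gene length was 31.1 kb, against 19.8 kb over the gene bodies the rule could take and 17.0 kb over all. Of the 299 with an annotation, 99.3% were protein coding, and of those the rule could take 99.4% were.

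Most of the set was transcribed. Of 299 genes with an RNA row, 219 averaged at least 8 normalized counts, the minimum for the test (73.2%), compared with 66.5% of the gene bodies the rule could take and 59.7% of all. A further 63 lay below the minimum and 17 had no count in any library. The median RNA level was 159 normalized counts in the set and 129 in the gene bodies the rule could take; per kb of gene it was 5.88 and 4.82. Levels ran up to Ahnak, a very large scaffold protein gene, and Eef1a1, the translation elongation factor gene, followed by the ubiquitin ligase gene Nedd4, the smooth muscle actin gene Acta2 and the cytolinker gene Plec. Ahnak had 119870, 119728 and 117403 normalized counts in sgNSD3 libraries, against 115073, 107761 and 105281 in sgControl libraries, 1.09-fold higher (limma adjusted p = 0.0131), and the other 4 did not pass.

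H3K27me3 scores were above 0 in 76 of the 300 (25.3%), with a median of -0.0359. Over the gene bodies the rule could take, 30.0% were above 0 and the median was -0.0268. The share moved with RNA. Among genes with at least 8 counts 19.6% of the set and 18.1% of other gene bodies were above 0, below that minimum 36.5% and 43.2% were, and with no RNA count 58.8% (10 of 17) and 58.6% were. Of these 3 groups, the set and the other gene bodies were thus furthest apart below the minimum. RNA was not equal inside the groups. The median was 2.18 counts in the set and 0.991 in others below the minimum, and 616 and 434 above it.

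The highest H3K27me3 scores of the set were those of Ccdc33 (0.488), Ugt1a7c and Ugt1a6a (0.310 each, overlapping gene bodies), Aknad1 (0.269) and BC051142 (0.268). Ccdc33 was at or near 0 in RNA and Aknad1 below 9 counts in every library, while Ugt1a7c had 799 to 977 counts. All 6 Ugt1a gene bodies were above 0. The lowest scores belonged to Aida (-1.91), Drg1 (-0.515), the protein kinase C gene Prkch (-0.452), the protein disulfide isomerase gene Pdia5 (-0.374) and Erich1 (-0.318). With 1 H3K27me3 column and no value per library, these scores carry no error.

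**Figure D4:**
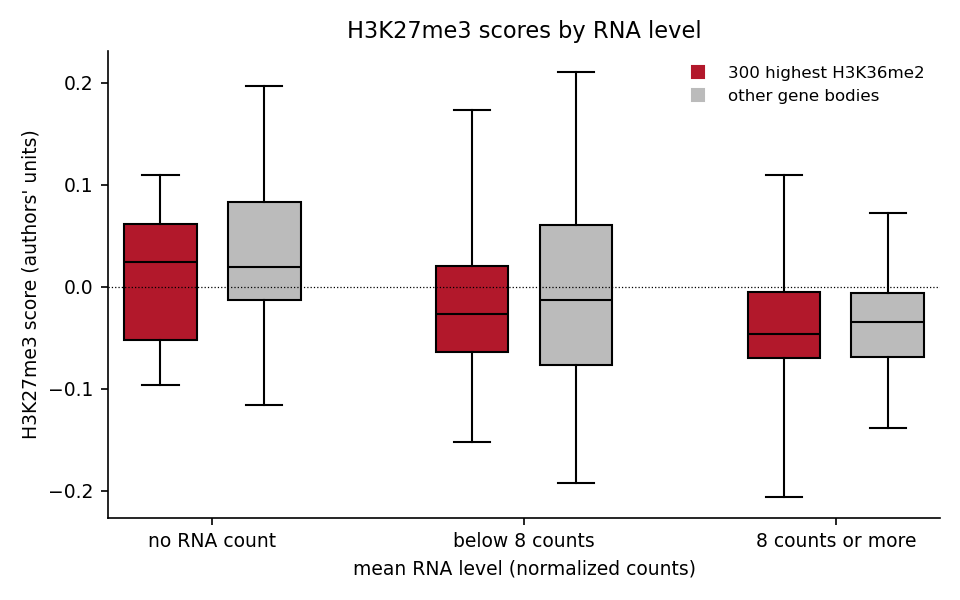
H3K27me3 score of gene bodies by mean RNA level; red boxes are the 300 gene bodies with the highest H3K36me2 score, grey boxes all others, with the median, the quartiles as box and the 5th to 95th percentiles as whiskers. Scores fall from genes with no RNA count to genes with at least 8 counts in both sets, and the boxes of the sets overlap at every level.

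The RNA of most of the set did not differ past the test's threshold, and most of the called changes were small. Of the 219 tested genes, 31 were higher in sgNSD3 libraries (14.2%) and 22 were lower (10.0%) by limma with Benjamini-Hochberg adjustment over 18263 genes at 0.05. Over all tested genes 5.44% were higher and 6.44% were lower, 11.9% in either direction, and over the tested genes with a gene body score 6.32% and 8.08%. Without sgNSD3 replicate 1, 2 or 3 the counts over all tested genes were 645, 641 and 658 higher and 707, 727 and 774 lower, against 994 and 1176. The excess of rises depended on how the set was ranked: by the second H3K36me2 column alone 22 of 245 tested genes were higher (8.98%) and 27 lower (11.02%), and by score per gene length 0 of 66 were higher and 12 lower (18.2%). The conditions did not overlap for 89 of the 219 (40.6%), against 28.5% of all tested genes. The median size of the 53 called changes was 0.24 on the log2 scale and 6 passed 1, while the median change of all 219 was 0.0035.

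Some cell type markers moved between the same libraries. The summed epithelial and squamous markers had 3077 to 3111 normalized counts in sgNSD3 libraries, against 4265 to 4827 in sgControl libraries, with Krt18, Krt19 and Krt14 lower (3 of 9). Krt8 was not called, and Trp63 and Sox2, below the test's minimum, averaged higher in sgNSD3 libraries. The summed mesenchymal markers had 1153322 to 1162446 counts in sgNSD3 libraries, against 1013474 to 1090837 in sgControl libraries. Col1a1, Fn1 and Pdgfrb were higher (3 of 6). Vim was not called. Col1a2 (280299 against 300518) and Cdh2 (4974 against 5095) averaged lower in sgNSD3 than in sgControl libraries and were not called. Kdr averaged 190 counts in sgNSD3 libraries and 115 in sgControl libraries, and Tubb3 averaged 180 in sgNSD3 libraries and 109 in sgControl libraries, both called higher, while the defining markers Epcam, Krt5, Cdh5, Rbfox3, Cd3e and Ptprc were at or near 0. The summed immune markers stayed under 1.05 counts in every library. The part of these shifts in the RNA changes of the set was not tested.

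Shares of calls differed by gene length and by RNA level, but the share of rises in the set barely differed by level. Tested gene bodies were split into 3 equal groups by length, at 13.6 and 39.8 kb. In the shortest group 3 of 57 genes of the set were higher (5.26%), against 2.97% of others. In the middle group the shares were 17.2% and 4.53%, and in the longest 17.3% and 11.2%. Across 3 equal groups by RNA level, from low to high, the share of the set that was higher was 15.1%, 13.7% and 13.7%, against 5.04%, 5.13% and 8.53% of others. For genes that were lower the set and the others stayed closer, at 12.3% and 10.4%, 8.62% and 6.81%, and 9.62% and 6.84% from the shortest to the longest group. By RNA level, from low to high, 5.48%, 5.88% and 15.8% of the set were lower, against 4.69%, 6.38% and 13.0% of others.

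Chromosome 1 carried 10 of the 31 rises. Of its 27 tested genes of the set 37.0% were higher and 1 was lower, while elsewhere 21 of 192 were higher and 21 were lower (10.9% each). Other gene bodies on chromosome 1 were higher in 6.70% and lower in 7.37%. Of the 10, 4 lie in the Ugt1a stretch, and outside it 27 of 212 genes of the set were higher (12.7%). This comparison was made after the values were seen and was not tested.

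Among the rises, Rcan2, a regulator of the phosphatase calcineurin, changed most on the deposited scale. It had 316, 316 and 318 normalized counts in sgNSD3 libraries, against 145, 129 and 133 in sgControl libraries. That was 2.33-fold higher, a log2 fold change of 1.22 ± 0.087 (SE, n = 3 per condition, limma adjusted p = 2.82e-10), and the conditions were far apart. Plscr4, a phospholipid scramblase gene, had 141, 129 and 145 counts in sgNSD3 libraries, against 72.1, 65.1 and 66.98 in sgControl libraries, 2.03-fold higher. The bone morphogenetic protein ligand gene Bmp6 had 114, 87.3 and 89.0 counts in sgNSD3 libraries, against 50.1, 67.9 and 60.9 in sgControl libraries. All sgNSD3 values of both genes were above all sgControl values.

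Rises of highly expressed genes were smaller in fold. Serpinb6b, a serine protease inhibitor gene, had 4117, 4257 and 4093 counts in sgNSD3 libraries, against 3288, 3345 and 3352 in sgControl libraries (1.25-fold). Nipbl, which loads cohesin onto chromatin, had 2572, 2615 and 2569 counts in sgNSD3 libraries, against 2152, 2134 and 2368 in sgControl libraries (1.17-fold). Tsc22d2 was 1.201-fold and Adamtsl3, a gene of the ADAMTS-like matrix proteins, 1.40-fold higher in sgNSD3 libraries, again with no overlap.

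Of the 12 highest scores, Pacs1, Hjurp, Ugt1a7c and Suv420h1 were higher in RNA and none was lower, 4 of 11 tested, where 5.44% of all tested genes were higher and 6.44% lower. Hjurp and Ugt1a7c come from the chromosome 1 stretch described above. Suv420h1, listed in the RNA table under a newer symbol, had 1570, 1547 and 1583 counts in sgNSD3 libraries, against 1367, 1396 and 1434 in sgControl libraries (log2 fold change 0.16 ± 0.040 SE, limma adjusted p = 0.00570). Pacs1 was 1.15-fold higher. Of the 5 genes just inside the limit, the meiotic synaptonemal complex gene Syce2 was higher, at 44.4, 38.3 and 43.0 counts in sgNSD3 libraries, against 28.2, 29.7 and 23.3 in sgControl libraries.

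On the deposited scale the falls were led by Rab6b, a Rab GTPase gene of Golgi transport. It had 393, 426 and 411 normalized counts in sgNSD3 libraries, against 714, 676 and 719 in sgControl libraries, a log2 fold change of -0.78 ± 0.058 (SE, limma adjusted p = 6.44e-10). Prkch had 32.04, 36.4 and 27.4 counts in sgNSD3 libraries, against 58.5, 67.9 and 78.1 in sgControl libraries. Rab6b and Prkch were lower in every sgNSD3 library than in any sgControl library. By log2 fold change Prkch (-1.07), Prex1 (-0.94) and Chn1 (-0.84) fell further than Rab6b.

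A pair of regulators of Rac also fell. Chn1, a GTPase-activating protein gene, had 90.9, 87.3 and 97.8 counts in sgNSD3 libraries, against 178, 155 and 163 in sgControl libraries. Prex1, an exchange factor gene, had 22.7, 23.0 and 26.4 counts in sgNSD3 libraries, against 50.1, 50.7 and 40.6 in sgControl libraries. The rest of the 10 largest falls on the deposited scale were of abundant transcripts and lay between 1.11-fold and 1.25-fold lower. They were Itga3, an integrin subunit gene, Cxadr, a junction protein gene known as a virus receptor, and Cd24a, a surface glycoprotein gene. Phlda1, Cyth3, an exchange factor gene for Arf GTPases, and Ngfrap1 completed them. Mmp10, a called gene with fewer counts that is described below, fell further in fold (log2 -0.49). Cxadr, for example, had 11821, 11993 and 11742 counts in sgNSD3 libraries, against 12888, 13564 and 13689 in sgControl libraries.

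**Figure D5:**
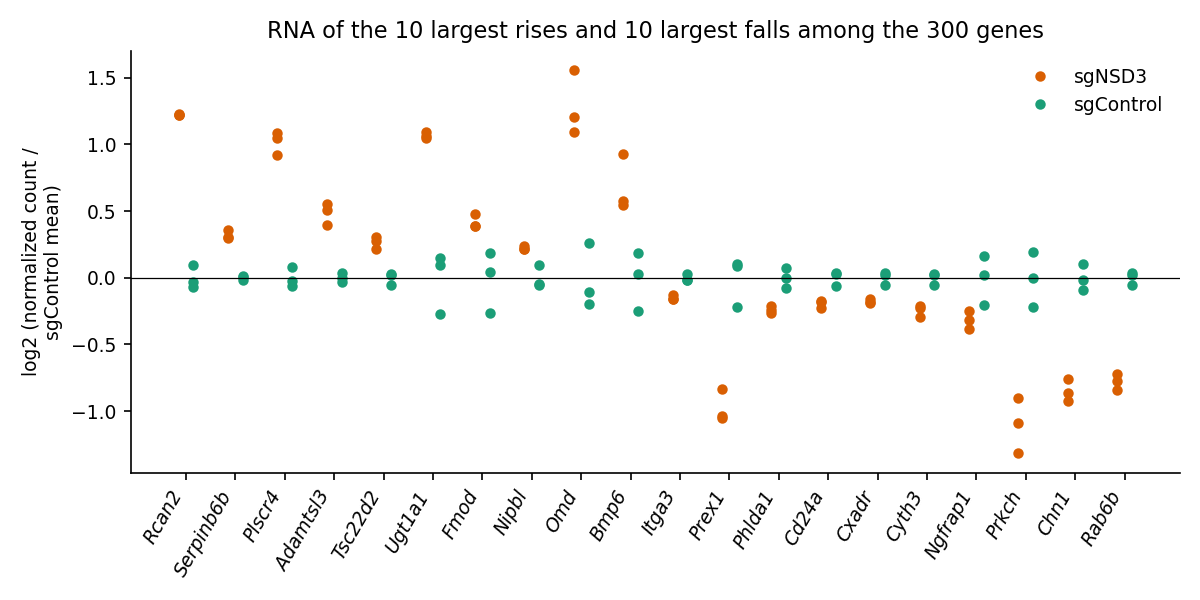
RNA of the 10 largest rises and the 10 largest falls among the 300 genes, as log2 of each library's normalized count over the sgControl mean (y axis), 3 sgNSD3 libraries (orange) left of 3 sgControl libraries (green) for each gene. The conditions do not overlap for any of the 20 genes, and the highest single value is of Omd and the lowest of Prkch.

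By gene class, counted from symbol patterns, no class held more than 13 of the 300. Transporters and channels were the most frequent class, 13 genes (4.33%, against 3.70% of the gene bodies the rule could take), of which 6 were tested and none was called. Over all tested genes 11.9% were called in either direction, and the class counts here and below are too small to set against that share. Among the transporters and channels, Slc30a4, Trpm8 and Slc37a1 had the highest scores. Olfactory and vomeronasal receptors gave 1 gene (0.333%, against 6.20%), and histones, WNT genes and cyclic nucleotide signalling genes gave none, out of 68, 47 and 61 that the rule could take.

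TGF-beta and BMP genes, which signal through SMAD transcription factors, gave 5 genes (1.67%, against 0.317%, from 54). All 5 were tested: the ligand gene Bmp6 and the receptor gene Bmpr2 were higher, the activin and inhibin subunit gene Inhbb was lower, and the SMAD gene Smad4 and Bmp2k were not called. Bmp2k encodes a kinase that the symbol pattern caught. Inhbb had 751, 697 and 773 counts in sgNSD3 libraries, against 902, 843 and 849 in sgControl libraries. Bmpr2 had 4544, 4356 and 4343 counts in sgNSD3 libraries, against 3944, 4104 and 4196 in sgControl libraries, 1.08-fold higher (limma adjusted p = 0.0205). Without sgNSD3 replicate 2 neither Bmpr2 nor Inhbb passed the test, and without sgNSD3 replicate 1 Bmpr2 did not.

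Extracellular matrix genes gave 5 (1.67%, against 0.780%), of which 4 were tested, Adamtsl3 was higher and the stromelysin gene Mmp10 was lower. Mmp10 had 75.4, 83.4 and 72.3 counts in sgNSD3 libraries, against 108, 128 and 93.4 in sgControl libraries. It did not pass when sgNSD3 replicate 1, sgNSD3 replicate 3 or sgControl replicate 2 was left out. Mmp28 was not called. Ubiquitin genes gave 7 (2.33%, against 1.81%), with Hectd2, Fbxo45 and Nedd4 as examples. Of these 7, 6 were tested and none was called, where 11.9% of all tested genes were called in either direction.

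Protein kinases, membrane trafficking genes and zinc finger proteins gave 5 each, too few to set their calls against the 11.9% of all tested genes called in either direction. Of the 4 tested kinases Prkch was lower and the cyclin-dependent kinase gene Cdk7 was not called, and Pak6 was under the test's minimum. Of the 5 tested trafficking genes Rab6b was lower and Dennd3 and the endosomal gene Rab5a were not called. None of the 5 zinc finger genes, Zfp706, Zfp68 and Zfp637 among them, was called. The symbol pattern for chromatin regulators caught 1 gene of 143, the deacetylase gene Hdac5, which was not called. It missed other members that act on chromatin, such as the histone H4 methyltransferase gene Suv420h1, which was called higher.

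The groups that follow were put together after the values of the set were seen and carry no weight as groups. The small leucine-rich proteoglycans, which organise collagen fibrils, gave 4 genes of the 12 that the rule could take: Omd, Fmod, Prelp and Lum. Prelp had 22.7, 25.9 and 13.7 counts in sgNSD3 libraries, against 9.40, 5.74 and 8.12 in sgControl libraries. Omd had 42.4, 30.7 and 33.2 counts in sgNSD3 libraries, against 12.5, 13.4 and 17.2 in sgControl libraries. Fmod had 412, 439 and 412 counts in sgNSD3 libraries, against 325, 262 and 359 in sgControl libraries. All 3 were called higher without overlap, at levels that are low for Prelp and Omd, and Lum had at most 2.03 counts in any library. Fmod and Prelp are neighbours on chromosome 1, with Mybph of the set beyond Fmod.

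Chemokine ligands gave 6 genes of 33: Cxcl12, Ccl11, Ppbp, Cxcl3, Cxcl5 and Xcl1. Cxcl12, which attracts CXCR4-bearing cells, had 14175, 14232 and 13883 counts in sgNSD3 libraries, against 15308, 15586 and 15607 in sgControl libraries, a log2 fold change of -0.14 ± 0.025 (SE, limma adjusted p = 0.000919). The other 5 did not reach the test's minimum, and Cxcl5, Ppbp and Cxcl3 lie next to each other on chromosome 5.

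Heparan sulfate genes gave 4 of 30, all tested. The core protein gene Sdc4 had 11300, 11185 and 11469 counts in sgNSD3 libraries, against 10017, 10478 and 10198 in sgControl libraries, and the sulfatase gene Sulf2 had 2152, 2309 and 2201 in sgNSD3 libraries, against 2425, 2426 and 2578 in sgControl libraries. Sdc4 was thus higher and Sulf2 lower without overlap, while the core protein gene Gpc1 and the polymerase gene Ext1 were not called. The placental prolactin family gave 3 of 25 (Prl8a6, Prl7a1 and Prl2c3), and none was tested.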

How the data were processed

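RNA and histone-mark libraries came from mouse tumor-derived cells with sgNSD3 or sgControl. HISAT2, featureCounts, DESeq2 and mm10 are named without versions, per the submitters' processing notes; the labels' extraction text for RNA is that of chromatin. The deposited RNA values are on the log2 scale of the authors' DESeq2 variance-stabilising transform, taken from the values: a gene with no reads sits at 8.45 in every library. Inverting the transform gave normalized counts, and dividing by each library's step gave whole counts for 100% of values (tolerance 0.05). The deposited chromatin values are signed scores per gene body, and the sources used here do not say how the authors normalized them. No IgG value was used. The IgG library titled sgNSD3 carries an sgControl source label, and both IgG libraries carry the H3K36me2 antibody label.

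Genes averaging at least 8 normalized counts over the 6 RNA libraries (18263) were tested two-sided on the deposited log2 values with limma 3.58.1 (R 4.3.3, with a trend of variance on mean), with Benjamini-Hochberg adjustment over all of them at 0.05. Log2 fold changes and their SE were fitted with limma on normalized counts after adding 1, a scale that understates changes of low genes, and folds are ratios of mean normalized counts. On simulated libraries of the same size with 18280 tested genes, 68% of 50 genes changed 1.2-fold and 98% of 50 changed 1.5-fold were recovered. In that simulation 13 unchanged genes were called. The changed genes averaged at least 32 counts, and every gene had the same dispersion, 0.000462, estimated from well-expressed genes. These rates therefore do not carry over to genes with fewer counts or a larger spread between libraries. Gene bodies were matched by symbol to RefSeq GRCm38.p6 (20194, and 1341 by synonym) and to the RNA table (21120, and 1047 by synonym). Replicate numbers did not pair the RNA libraries: correlations of their deviations ran from -0.066 to 0.055.

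The genes named are those with the 12 highest scores, the 5 on each side of the limit, the 10 largest RNA rises and falls on the deposited scale, the 5 highest and lowest H3K27me3 scores, the 5 highest RNA levels, and up to 3 per class with at least 5 genes. Other genes (Mroh2a, Trpm8 as part of the chromosome 1 stretch, Prelp, Lum, Cxcl12 and the other chemokine, heparan sulfate and prolactin genes, Smad4, Bmp2k, Hdac5 and neighbours of named genes) were chosen after their values were seen. The 300 genes and all lists were chosen with earlier results of these data known. Class shares, H3K27me3 shares, length, position and promoter composition are descriptions without a test. Alternatives covered the transform, the filter, the scaling, the test, each library left out and the way the 300 were ranked. Some genes and classes are not reported here.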

Additional observations from a re-analysis of the deposited data

How the results depend on the processing

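Leaving out 1 library at a time gave 641 to 993 genes higher and 707 to 1164 lower over the whole table, against 994 and 1176 with all 6, and 22 to 33 genes of the set higher and 15 to 26 lower, against 31 and 22. The lowest whole-table counts came without sgNSD3 replicate 2 (641 higher, 727 lower), replicate 1 (645, 707) and replicate 3 (658, 774). With a replicate block by the title numbers, 34 genes of the set were higher and 26 lower (1119 and 1333 in all), and with a replicate block by the description numbers 31 and 20 (919 and 1086 in all); the numbers do not pair the libraries. Of 359 values for 24 named calls under alternatives, 345 kept direction and side of the threshold, 14 missed the threshold, those of Mmp10, Bmpr2 and Inhbb among them, and 0 reversed; Bmpr2 also missed it with limma-voom on recovered counts.

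The choice of the 300 mattered more than the RNA test. Ranking by the mean of both columns kept 132 of the genes, the first column alone 122, the second column alone 34, and the score per gene length 13. The share above 0 in H3K27me3 was 19.3% by the mean, 18.3% by the second column and 48.7% per length, against 25.3%. The share tested in RNA was 79.6%, 81.7% and 22.0% in the same order, against 73.2%. Median length was 23.6 kb for the 150 highest and 0.936 kb per length, against 31.1 kb. Chromosome 1 held 2.67% per length and 4.33% with scores divided by the chromosome median, against 14.05%. The share higher in RNA was 8.98% by the second column and 0.0% per length, against 14.2%, and the share lower was 18.2% per length, against 10.0%. The second and the per-length rankings were read on sets that share few genes with the 300; the cause of the differences was not tested. The grid of the scores limits what can be said of single ranks, and the scores have no error.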
